A study of Mus musculus with 2 samples.

Results

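The clustered histone genes of the mouse were examined for DNA methylation in 2 haploid embryonic stem cell lines. They were taken as all RefSeq genes of the GRCm38.p6 assembly (the assembly of mm10) whose symbol or older symbol begins with Hist1h, Hist2h, Hist3h or Hist4h, which gave 70 of the 49997 genes in the table. A CpG counted for a gene when it lay between 1 kb outside the gene's start and 1 kb outside its end and had at least 10 reads in both libraries. With at least 5 such CpGs, 57 of the 70 genes could be described, beside 23073 of all genes. The rule uses position and read depth but no methylation value.

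Genomic DNA of line A129-2, on a 129Sv background, and of line AOS-14, on a C57BL/6 background, was measured by bisulfite sequencing in 1 library each. Both lines, per the labels, are haploid embryonic stem cells obtained by cell sorting from AG-haploid embryos and grown in ES medium. Line, strain and library cannot be told apart here, and every test below compares the reads of 2 libraries. The files listed 1699405 CpGs with 153035567 read calls for A129-2 and 1819756 CpGs with 178315194 read calls for AOS-14. Across the 1030368 CpGs with enough reads in both libraries, A129-2 had a mean methylation level of 9.48% and AOS-14 of 15.0%. Of these CpGs, 33.4% lay inside CCGG, the site of the enzyme MspI, where levels averaged 18.9% and 27.9%. Outside CCGG they averaged 4.74% and 8.49%. The same split appeared in mitochondrial DNA, at 8.72% and 10.1% over 7 CpGs inside CCGG and 0.391% and 0.380% over 13 CpGs outside it. Results on the histone genes are therefore given for both contexts, and the part of the CCGG context in each difference was not tested further.

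Clustered histone genes make the bulk histones that package new DNA during S phase. Their transcripts mostly end in a stem loop in place of a poly(A) tail, the genes are short and without introns, and H2A and H2B genes often stand head to head and share a promoter. H2A, H2B, H3 and H4 form the nucleosome core, and H1 binds the linker DNA. Promoters of these genes are usually unmethylated in dividing cells, whereas the testis forms of H2A and H2B are known for methylation in somatic tissue.

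The stretches upstream of 2 genes whose promoters were measured at many CpGs are shown first. Each sequence runs from 150 bases before the RefSeq start to the base before it, 5′ to 3′ on the gene's strand, and capitals mark the CpGs compared in both libraries. The stretch of Hist2h2aa1 (current symbol H2ac18), which encodes a core H2A, is chr3:96245347-96245496 on the + strand of GRCm38.p6. That of Hist1h4a (H4c1), which encodes H4, is chr13:23761250-23761399 on the - strand.
Hist2h2aa1: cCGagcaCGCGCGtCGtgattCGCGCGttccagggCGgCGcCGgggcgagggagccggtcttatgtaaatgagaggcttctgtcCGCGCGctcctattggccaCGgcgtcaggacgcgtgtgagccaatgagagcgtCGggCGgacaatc
Hist1h4a: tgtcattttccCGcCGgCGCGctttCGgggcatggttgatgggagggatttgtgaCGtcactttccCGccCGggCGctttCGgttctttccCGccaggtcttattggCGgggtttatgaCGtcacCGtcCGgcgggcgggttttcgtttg

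Upstream of Hist2h2aa1, 17 of 23 CpGs were compared. The 16 outside CCGG averaged 0.704% in A129-2 and 0.780% in AOS-14, with no methylated read at 12 and at 8 of them. The CpG inside CCGG stood at 10.3% and 20%. Upstream of Hist1h4a, 15 of 18 CpGs were compared, on 3487 and 2847 reads. The 12 outside CCGG averaged 0.610% and 0.783%, and none exceeded 1.18% in A129-2 or 1.27% in AOS-14. The 3 inside CCGG averaged 8.58% and 14.1%. In both stretches the CpGs inside CCGG thus averaged more than those outside.

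Head-to-head pairs of H2A and H2B genes are shown with 2 examples, an ordinary pair and the testis pair. Capitals here mark matches on either strand to CCAAT (the letters bound by NF-Y), to the octamer ATTTGCAT (bound by POU factors such as Oct1) and to TATAAA (the TATA box). The starts of Hist1h2ae (H2ac8) and Hist1h2bg (H2bc8) lie 180 bp apart, and those of Hist1h2aa (H2ac1) and Hist1h2ba (H2bc1) lie 281 bp apart. Since these windows are upstream of divergent genes, the sequences of a pair overlap on opposite strands. They are chr13:23571221-23571370 on the - strand, chr13:23571250-23571399 on the + strand, chr13:23934287-23934436 on the + strand and chr13:23934157-23934306 on the - strand, in the order printed.
Hist1h2ae: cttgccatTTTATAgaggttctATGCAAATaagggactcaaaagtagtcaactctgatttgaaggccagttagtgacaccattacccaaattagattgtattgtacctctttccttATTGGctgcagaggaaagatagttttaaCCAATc
Hist1h2bg: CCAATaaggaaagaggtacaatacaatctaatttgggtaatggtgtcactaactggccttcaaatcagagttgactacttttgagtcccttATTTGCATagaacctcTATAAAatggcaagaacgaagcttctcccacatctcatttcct
Hist1h2aa: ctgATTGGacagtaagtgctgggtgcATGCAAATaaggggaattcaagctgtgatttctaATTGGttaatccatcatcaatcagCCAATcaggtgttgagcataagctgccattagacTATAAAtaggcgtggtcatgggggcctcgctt
Hist1h2ba: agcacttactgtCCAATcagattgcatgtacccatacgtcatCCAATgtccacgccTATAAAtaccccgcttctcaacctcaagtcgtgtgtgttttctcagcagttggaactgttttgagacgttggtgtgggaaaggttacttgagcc

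These 4 stretches hold 0, 1, 2 and 5 CpGs, and none of these was compared, so the values of both pairs come from outside these stretches. RefSeq promoter windows, from 250 bases before to 50 after the start, were at hand for 62 of the 70 genes, in 63 windows. CCAAT occurred on either strand in 54 of the 63 windows (85.7%), against 37.4% of 32851 mouse promoter windows of that length. It occurred in every H1, H2A, H2B and H3 window at hand and in 3 of 12 H4 windows. The octamer occurred in 14 (22.2%, against 1.74%), of which 7 were among 18 H2A windows and 7 among 17 H2B windows. TATAAA occurred in 35 (55.6%, against 13.6%). GGTCC, letters from a promoter element of H4 genes, occurred in 27 (42.9%, against 45.5%), and in 11 of 12 H4 windows. Windows of head-to-head genes can overlap, so 1 site may count for both genes, and these counts are not of separate sites. None of the motifs contains another, and a match describes the sequence without showing that a factor binds there.

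Coverage followed the class of histone. All 20 H2A, 19 H2B and 12 H3 genes had at least 5 compared CpGs, as did 4 of 6 H1 genes, but only 2 of 13 H4 genes. Not described further are Hist1h4b, Hist1h4c, Hist1h4d, Hist1h4f, Hist1h4h, Hist1h4i, Hist1h4j, Hist1h4k, Hist1h4m, Hist1h4n, Hist4h4, Hist1h1d and Hist1h1t. The testis linker histone gene Hist1h1t (H1f6, chr13:23695811-23696545) had 1 CpG listed in A129-2 and 0 in AOS-14. Hist4h4 (H4f16, chr6:136803993-136804431), the only Hist4 member, had 2 and 4 listed and 0 compared. Of the RefSeq promoter windows, those of 16 genes held any compared CpG and those of 5 genes held at least 5. Promoters of most members were thus hardly sampled, and the gene levels below mainly describe gene bodies.

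The 57 genes reached 902 distinct CpGs, of which 330 lay near 1 member, 560 near 2 and 12 near 3. Since neighbours share CpGs, there were 48 distinct sets of CpGs, and 9 of these sets belonged to 18 genes. Members that share a set have the same value by construction and are not separate observations.

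Methylation of the clustered histone genes was low in both lines. A129-2 had a median gene level of 2.88% and AOS-14 one of 3.50%, where that of all 23073 genes was 6.70% and 9.73%. Members ranged from 1.23% to 7.90% in A129-2 and from 1.77% to 9.75% in AOS-14. In each line 56 of the 57 lay under the median of all genes. Of all genes, 10% lay under 2.57% in A129-2 and 3.30% in AOS-14, and so did 23 and 25 members. No histone gene in the plot of members by class exceeded 10% in either line.

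**Figure D1:**
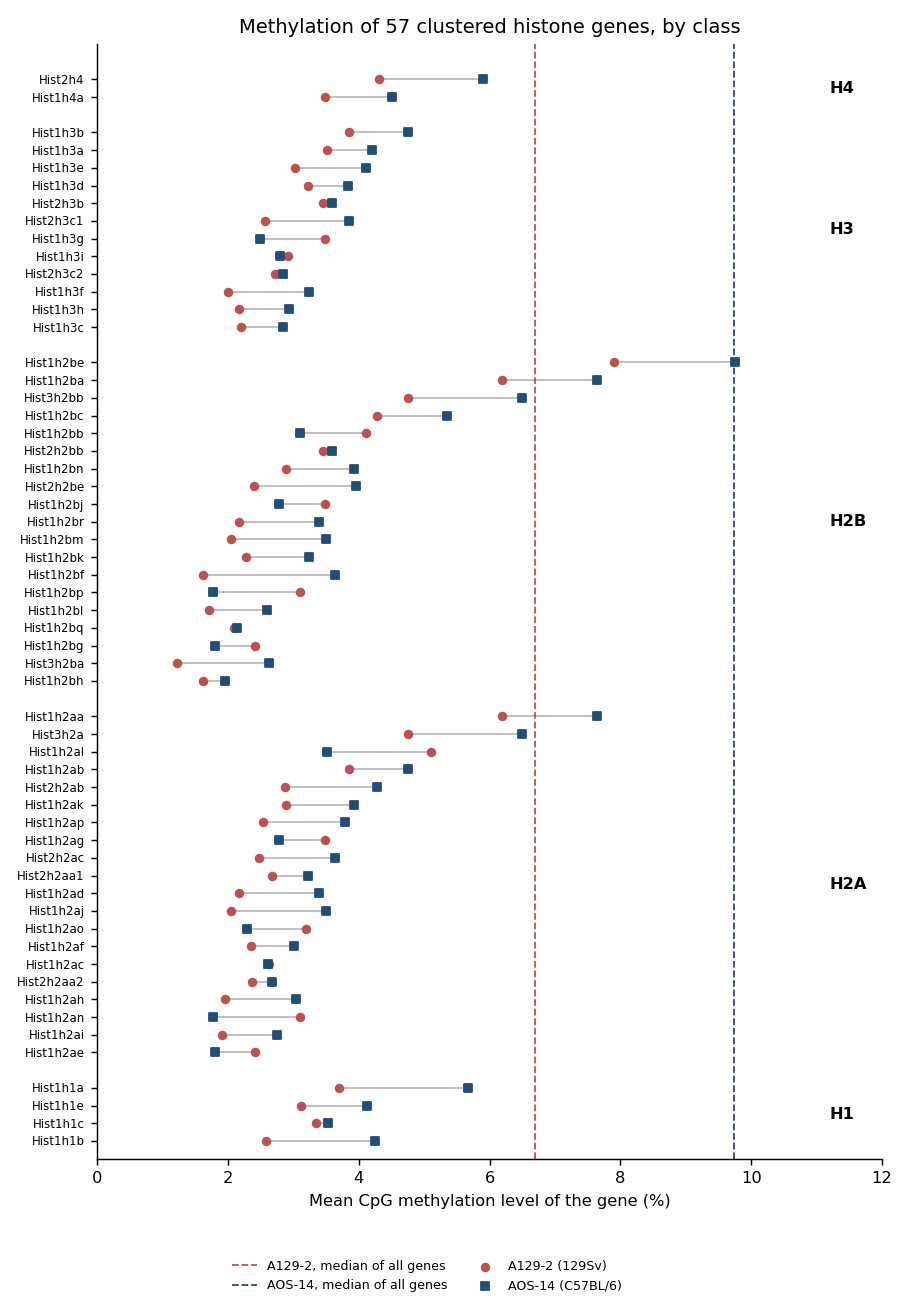
Mean CpG methylation level in percent (x axis) of the 57 clustered histone genes with at least 5 compared CpGs (y axis), grouped by histone class. Red circles are A129-2 and blue squares AOS-14, with 1 library per line, and dashed lines give the medians of all genes (6.70% and 9.73%), below which 56 of 57 members lie in each line.

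Most of the level at these genes came from CCGG. Over the 902 CpGs the mean was 3.02% in A129-2 and 3.63% in AOS-14. The 175 CpGs inside CCGG averaged 12.4% and 15.5%, and the 727 outside averaged 0.762% and 0.781%. Outside CCGG, 405 CpGs in A129-2 and 430 in AOS-14 had no methylated read, and 5 in each line reached 10%. All 8 member CpGs at 25% or more in A129-2 and all 15 in AOS-14 were inside CCGG. For comparison, the 13 mitochondrial CpGs outside CCGG stood at 0.391% and 0.380%.

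**Figure D2:**
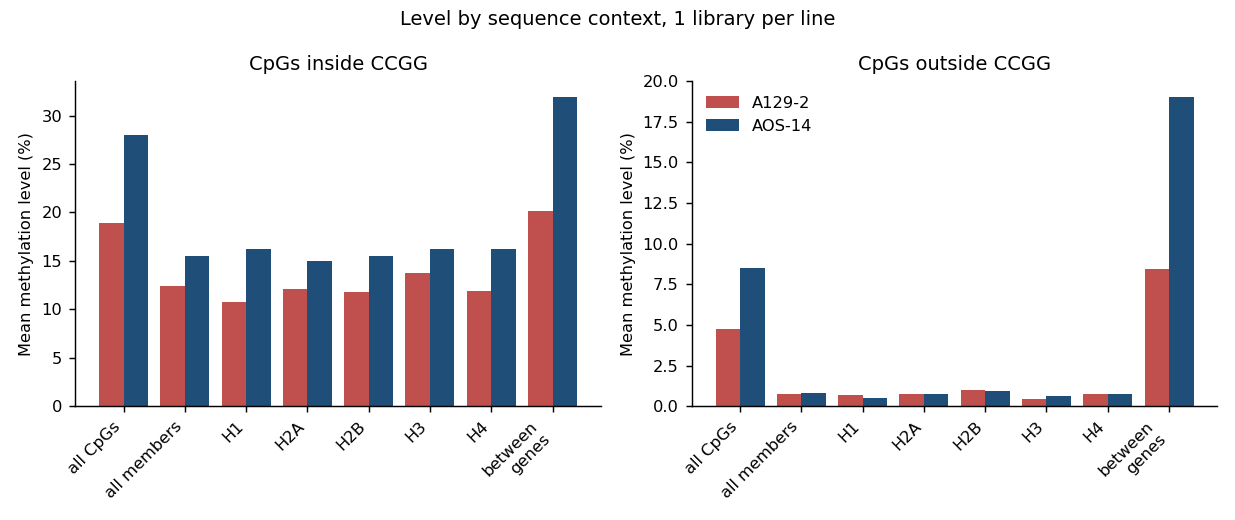
Mean methylation level in percent for CpGs inside CCGG (left) and outside it (right), for all compared CpGs, all histone members, each class, and the DNA between histone genes of the Hist1 cluster. Bars are single libraries without replicates; outside CCGG the members stand at 0.762% and 0.781%, where all CpGs stand at 4.74% and 8.49%.

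A smaller share of the histone genes than of all genes was lower in A129-2. Methylated and unmethylated reads summed over a gene's CpGs entered a two-sided Fisher's exact test, and p-values were adjusted over all genes tested by the Benjamini-Hochberg method. A call takes the direction of the reads tested. At adjusted p under 0.05, 76.6% of all genes were lower in A129-2, and 19 of 57 histone genes (33.3%) were. Higher in A129-2 were 0.581% of all genes and 0 of 57 members. With a difference of at least 25 points required as well, 0.914% of all genes and 0 of 57 members were lower. By the mean over CpGs, with no test, 45 members were lower and 12 higher, beside 94.5% of all genes lower. The median difference, A129-2 minus AOS-14, was -0.91 points for members and -2.87 points for all genes. Counted by distinct sets of CpGs, 17 of 48 were lower.

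Summing reads weights a CpG by its depth, and the 2 libraries distribute their depth differently. A test that compares the reads within each CpG (Cochran-Mantel-Haenszel), chosen after the data had been seen, called 78% of all genes lower and 0.399% higher. By it 18 members were lower and 2 higher, or 17 and 1 counted by distinct sets of CpGs. By both tests 16 members were lower and 0 higher, where 73.6% and 0.312% of all genes were. The members had less data than the average gene, with a median of 24 CpGs against 30 and of 2207 and 1651 reads against 3290 and 3717. A level near 3% also leaves little room for a lower value, and the part of depth and level in the smaller share was not tested.

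Outside CCGG the members differed between the lines in both directions. The median gene stood at 0.630% in the A129-2 library and 0.622% in that of AOS-14, where all 19460 genes with at least 5 such CpGs had medians of 1.83% and 3.01%. By the mean over CpGs 28 members were lower and 29 higher in A129-2, while of all genes 88.7% were lower. The median difference of members was 0.03 points, against -1.04 points for all genes. Over distinct sets of CpGs it was -0.06 points, so its sign rests on the sets counted for 2 genes. By Fisher's exact test on summed reads, 5 members were lower and 3 higher, where 62.2% of all genes were lower and 1% higher. Compared within each CpG, 4 members were lower and 3 higher, against 60.5% and 0.786% of all genes. The 3 higher ones passed both tests, as did 0.663% of all genes. They are Hist1h2bb (H2bc3) and the pair Hist1h2an and Hist1h2bp, which share their CpGs, so they make 2 distinct sets. Hist1h2bc (H2bc4), an H2B gene, is among the lower ones with 2.84% and 4.12% on summed reads, while its mean over CpGs was 1.51% and 1.30%.

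**Figure D3:**
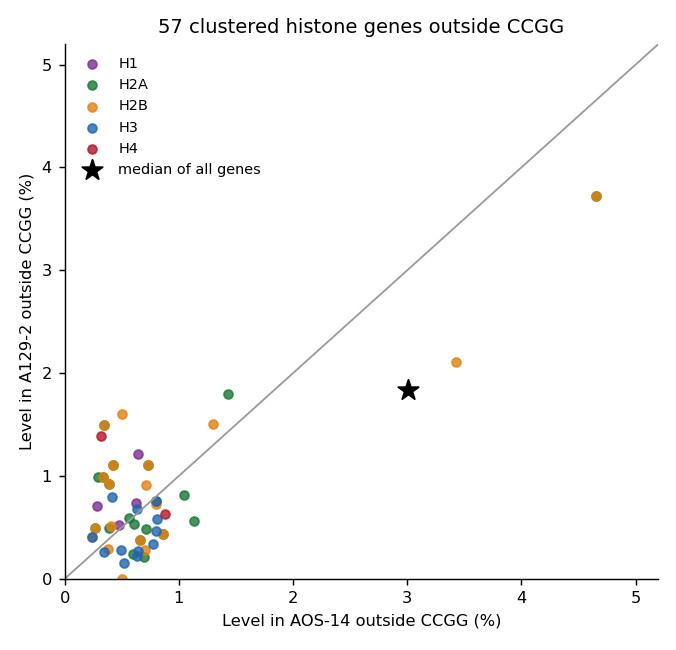
Methylation level outside CCGG in percent for 57 clustered histone genes, AOS-14 on the x axis and A129-2 on the y axis, coloured by class; genes that share CpGs lie on top of each other. The members scatter on both sides of the line of equal levels (28 lower and 29 higher in A129-2), below the median of all genes, except the testis pair and Hist1h2be.

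Single CpGs were also more often lower than higher in A129-2. Of the 902, 365 were lower in A129-2, 269 higher and 268 equal. Inside CCGG 124 were lower and 50 higher, and outside CCGG 241 were lower and 219 higher. Tested one by one with Fisher's exact test and adjusted over all compared CpGs, 12.9% of all CpGs were lower and 0.154% higher. Of the histone CpGs 5 were lower and 0 higher, 4 of the 5 being inside CCGG. None differed by 25 points, which 4.08% of all CpGs did in the lower direction.

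The 4 measured H1 genes encode linker histones, which bind where DNA enters and leaves the nucleosome. Their 67 CpGs averaged 3.10% in A129-2 and 4.25% in AOS-14. The 51 outside CCGG averaged 0.708% and 0.479%, so the direction there was the opposite. Hist1h1a (H1f1, chr13:23763668-23764412) had 3.70% and 5.68%, and Hist1h1e (H1f4, chr13:23621777-23622558) had 3.12% and 4.13%. Both missed the threshold on summed reads, at adjusted p = 0.357 and p = 0.0890 in Fisher's exact test. Within each CpG, Hist1h1e passed at an adjusted p of 0.0294 (Cochran-Mantel-Haenszel). The lowest by mean of the lines were Hist1h1c (H1f2, chr13:23738807-23739531), with 3.34% and 3.53%, and Hist1h1b (H1f5, chr13:21779832-21780625), with 2.58% and 4.24%.

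Hist1h1b was the only H1 gene lower in A129-2 by both tests, where 73.6% of all genes were. Its read-weighted level had an exact 95% binomial interval of 1.73% to 2.77% in A129-2 and 2.85% to 4.06% in AOS-14, and the adjusted p was 0.00419 by Fisher's exact test. With + strand reads only, the call was lost, at a difference of -0.49 points and an adjusted p of 0.540. Outside CCGG its 14 CpGs stood at 0.703% and 0.286%, so the direction there was the opposite, at an adjusted p of 0.877 by Fisher's exact test.

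The H2A genes encode the partner of H2B in the core particle. Over 607 CpGs of 20 genes the class mean was 2.76% in A129-2 and 3.24% in AOS-14, and outside CCGG it was 0.772% and 0.761%. On summed reads 7 of the 20 genes were lower and 0 higher, where 76.6% and 0.581% of all genes were. Within each CpG 6 were lower and 1 was higher, where 78% and 0.399% of all genes were. The highest were the testis gene Hist1h2aa, described with its partner below, and Hist3h2a (H2aw, chr11:58954685-58955192), with 4.75% and 6.497% on 7 CpGs. The lowest were Hist1h2ai (H2ac13, chr13:21716412-21716859), with 1.91% and 2.74%, and Hist1h2ae (chr13:23570663-23571220), with 2.42% and 1.80%.

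Hist1h2ae shares all 24 of its CpGs with Hist1h2bg, so its value is that of the pair whose promoter is printed above. The pair was among the 12 members with a higher level in A129-2, at an adjusted p of 0.227 by Fisher's exact test. Its direction turned with CpGs of at least 5 reads, at 2.59% and 3.06%, and with - strand reads only, at 1.63% and 1.90%. Among these 12, the pair Hist1h2an (H2ac22) and Hist1h2bp (H2bc22), which also share 24 CpGs, had 3.09% in A129-2 and 1.77% in AOS-14. They passed within each CpG (adjusted p = 0.0327, Cochran-Mantel-Haenszel) but not on summed reads (adjusted p = 0.111, Fisher's exact test). Outside CCGG the pair stood at 1.49% and 0.342% over 20 CpGs, at adjusted p of 0.0139 by Fisher's exact test and 0.00964 within each CpG. These genes were singled out after their values had been seen.

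The H2B genes held both the highest and the lowest member. Over 404 CpGs of 19 genes the mean was 3.12% in A129-2 and 3.78% in AOS-14, and outside CCGG 1.01% and 0.932%. On summed reads 6 genes were lower and 0 higher, and within each CpG 4 were lower and 1 was higher. Of all genes 76.6% were lower on summed reads and 78% within each CpG. The highest was Hist1h2be (H2bc6), at 7.90% and 9.75%. RefSeq gives this gene a long form of 37455 bp (chr13:23583670-23621124), where the median member has 491 bp. Its 4 CpGs at 25% or more in either line all lay inside CCGG in the interior of that long form.

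On summed reads Hist1h2be was lower in A129-2 (adjusted p = 0.000278, Fisher's exact test), but within each CpG it was not (adjusted p = 0.0587), nor with + strand reads only (adjusted p = 0.0860, Fisher's exact test). In all, 7 members span more than 1 kb in RefSeq. The 97 CpGs inside such long genes averaged 4.24% in A129-2 and 4.89% in AOS-14, where the 625 CpGs inside members of up to 1 kb averaged 2.69% and 3.34%. Outside CCGG the long bodies stood at 1.35% and 1.36% and the short ones at 0.697% and 0.737%.

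The largest difference that passed both tests was at Hist1h2bf (H2bc7, chr13:23573760-23574207). Its 22 CpGs averaged 1.62% in A129-2 and 3.64% in AOS-14, which is a difference of -2.03 points. The intervals of the read-weighted level were 0.840% to 1.85% and 2.10% to 3.64%, and the adjusted p was 0.00100 by Fisher's exact test. Of its CpGs 12 were lower in A129-2, 3 higher and the others equal. Outside CCGG it had 0.275% and 0.704%, at an adjusted p of 0.0542 by Fisher's exact test. The lowest H2B genes were Hist1h2bh (H2bc9, chr13:23542923-23543444), with 1.62% and 1.95%, and Hist3h2ba (H2bu2, chr11:58948911-58949372), with 1.23% and 2.63%.

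The testis genes Hist1h2aa (chr13:23934437-23934913) and Hist1h2ba (chr13:23933725-23934156) encode forms of H2A and H2B made in germ cells. They share all 25 compared CpGs, which also lie in or near the long noncoding gene Gm33516. These averaged 6.18% in A129-2 and 7.64% in AOS-14, on 1992 and 3047 reads. Outside CCGG the pair's 19 CpGs averaged 3.72% and 4.65%, where the other 55 members together averaged 0.682% and 0.677%. Inside CCGG its 6 CpGs averaged 13.98% and 17.12%, against 12.4% and 15.4% for the other members. Outside CCGG the pair was thus the highest of the members in both libraries, and Hist1h2be came next with 2.10% and 3.43%. In neither library did any CpG of the pair reach 25%.

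Between the lines the pair's difference depended on the test. On summed reads it was lower in A129-2 (adjusted p = 0.0162, Fisher's exact test), and within each CpG it did not pass (adjusted p = 0.0798). Outside CCGG the adjusted p was 0.0525 by Fisher's exact test, and with - strand reads only it was 0.663. With no flank, and with each CpG given to the nearest histone gene, Hist1h2aa alone had a difference of 0.79 points, in the opposite direction.

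The 12 H3 genes, which encode the core histone with the best known modified tail, averaged 2.90% and 3.51% over 332 CpGs. Outside CCGG their mean was 0.467% in A129-2, the lowest of the classes in that line, and 0.636% in AOS-14. On summed reads 3 genes were lower and 0 higher, and within each CpG 4 were lower and 0 higher. The shares of all genes lower by these tests were 76.6% and 78%. Hist1h3b (H3c2, chr13:23752345-23752840) had 3.85% and 4.75%, and Hist1h3a (H3c1, chr13:23761885-23762386) had 3.51% and 4.19%. Hist1h3a, whose window reaches the Hist1h4a promoter, passed within each CpG (adjusted p = 0.00172) but not on summed reads (adjusted p = 0.0622, Fisher's exact test). Lowest were Hist1h3h (H3c10, chr13:21717628-21718115), at 2.16% and 2.93%, and Hist1h3c (H3c3, chr13:23745042-23745521), at 2.20% and 2.84%. Neither passed on summed reads.

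Both measured H4 genes were lower in A129-2, as were 76.6% of all genes on summed reads. Hist1h4a (chr13:23760795-23761249) had 3.49% and 4.50% over 43 CpGs, at an adjusted p of 0.00301 by Fisher's exact test. With - strand reads only its adjusted p was 0.0619, and with a 2 kb flank 0.0611. Hist2h4 (H4c14, chr3:96262934-96263317) had 4.31% and 5.89% over 14 CpGs, at an adjusted p of 0.00339 by Fisher's exact test. Outside CCGG the adjusted p of these genes was 0.651 and 0.808, and Hist2h4 stood at 1.39% in A129-2 and 0.314% in AOS-14. With 11 of 13 H4 genes not measured, these values do not describe the class.

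The classes were close to each other. Class means ran from 2.76% for H2A to 3.69% for H4 in A129-2 and from 3.24% to 4.84% in AOS-14 for the same classes. Inside CCGG they ran from 10.7% for H1 to 13.7% for H3 in A129-2 and from 15.0% for H2A to 16.3% for H1, H3 and H4 in AOS-14. Shared CpGs and single libraries allow no test between classes.

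Around the gene starts that were sampled the level outside CCGG was low throughout. Only 12 promoters had a compared CpG before the start. Most of these CpGs lay in the 5 promoters with at least 5 compared CpGs, given below. In the 250 bp before a start its mean over 95 CpGs was 0.602% in A129-2 and 0.673% in AOS-14. In the first 250 bp after it the values were 0.697% and 0.727% over 369 CpGs, and in the next 250 bp 0.813% and 0.716% over 168 CpGs. The plot by distance from the start shows the higher values inside CCGG on both sides of the start. Among promoters with at least 5 compared CpGs, Hist1h4a had 3.10% and 4.42%, Hist2h3c2 3.87% and 4.13%, and Hist2h3c1 2.74% and 3.79%. The promoters of Hist2h2aa2 and Hist2h2aa1 had 1.16% and 1.87%, and 1.86% and 2.09%.

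**Figure D4:**
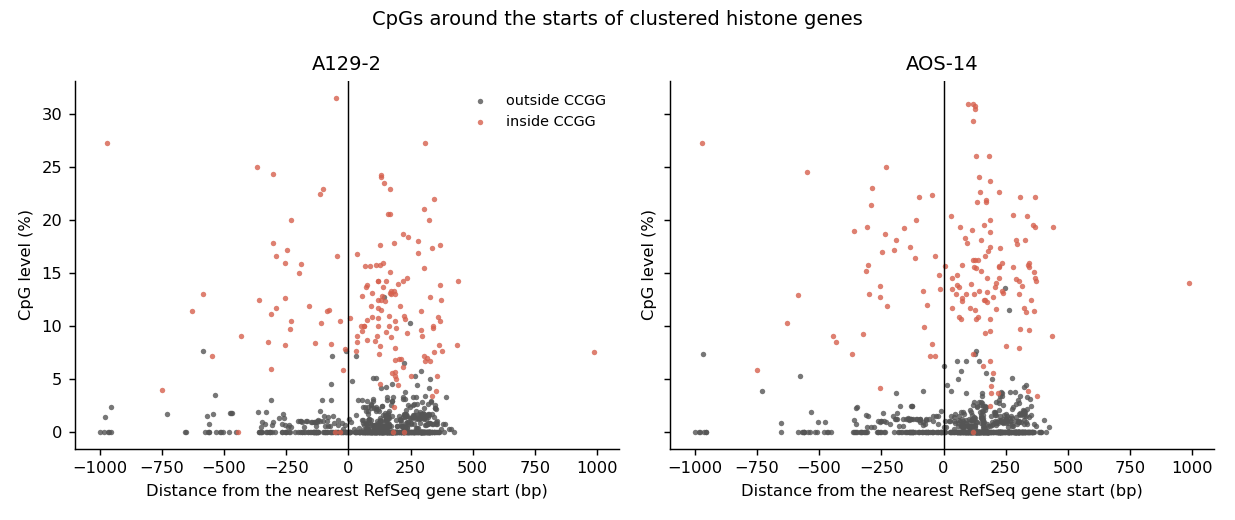
Methylation level in percent (y axis) of single CpGs within 1000 bp of the nearest RefSeq start of a clustered histone gene, by distance in bp (x axis, negative before the start), in A129-2 (left) and AOS-14 (right). Grey points outside CCGG lie near 0 on both sides of the start, and red points inside CCGG reach 31.6% in A129-2.

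By genomic cluster, Hist1 on chromosome 13 falls into 2 parts. Part 1 (chr13:21715711-22043658) holds 24 members, of which 19 were measured, with a mean of 2.64% in A129-2 and 3.07% in AOS-14. Part 2 (chr13:23531044-23934913) holds 31, of which 24 were measured, with 3.61% and 4.40%. Of the 10 genes of Hist2 (chr3:96219885-96270192), which had 2.69% and 3.22%, all were measured. On summed reads 3 genes of part 1, 8 of part 2 and 8 of Hist2 were lower in A129-2, and within each CpG 3, 7 and 8 were. Counted by genes, Hist2 thus had the highest share lower, near the 76.6% of all genes, but neighbouring Hist2 genes share CpGs. In fixed windows of 1 kb with at least 5 CpGs, 3 of the 11 near Hist2 genes were lower by either test. Of all such windows 55.3% were lower on summed reads. The Hist2 genes also had more data, with a median of 3670 reads in A129-2 against 2254 and 1991 in parts 1 and 2, and its part in the count was not tested.

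Within Hist2, Hist2h2aa1 and Hist2h2aa2 are near-copies, as are other genes of this cluster, and how reads with several positions were treated is not given in the sources used here. Several H2A and H2B genes of Hist1 repeat the same spacing of compared CpGs, so shared reads may affect the Hist1 values and calls as well. The Hist2 CpGs outside CCGG averaged 0.578% and 0.642%. Lower there by both tests, as were 57.4% of all genes, were Hist2h2aa1 with 0.488% and 0.713% and Hist2h3c1 with 0.342% and 0.772%. The other members lower outside CCGG by both tests were Hist1h2ad of Hist1, with 0.237% and 0.598%, and Hist1h2bc, given above. In the mean over CpGs none of these differed by a full point. For scale, mitochondrial CpGs outside CCGG stood at 0.391% in A129-2 and 0.380% in AOS-14.

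Hist3 on chromosome 11 (chr11:58948911-58955192) has 3 members, and its 23 CpGs averaged 2.30% in A129-2 and 3.81% in AOS-14. Hist3h2a and the transcribed pseudogene Hist3h2bb (H2bu1-ps, chr11:58954048-58954512) share 7 CpGs, on 722 and 1064 reads. None of the 3 passed either test, and Hist3h2ba had no methylated read at its 13 CpGs outside CCGG in A129-2. Hist1h2al (H2af-ps2, chr13:51200084-51203066), a transcribed pseudogene apart from both parts of Hist1, had 5.10% and 3.52% on 6 CpGs and did not pass.

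The DNA between the histone genes was on average more methylated, but unevenly so. It was taken from the first to the last histone gene of a cluster, over 1 kb from each of them. Hist2 and Hist3 had 0 compared CpGs there. Part 1 of Hist1 had 191, averaging 11.7% in A129-2 and 21.7% in AOS-14, and part 2 had 49, averaging 18.2% and 33.4%. Together these 240 CpGs stood at 13.03% and 24.1%, and the 146 outside CCGG among them at 8.46% and 19.1%. Between-gene CpGs in no RefSeq gene averaged 14.6% and 28.5% in part 1, and those inside another gene 6.01% and 8.26%. Much of part 1 was low between the genes as well. Of its 17 between-gene windows of 1 kb, 10 lay under 10% in both lines, and the median of the 17 was 5.62% in the A129-2 library and 8.83% in that of AOS-14. The 4 windows of chr13:21914537-21945368 stood at 1.39% to 5.79% and 1.36% to 6.09%. The 4 windows of chr13:21813206-21818752 stood at 12.8% to 34.9% and 38.9% to 63.9%, and they form the tallest group in the map of single CpGs.

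**Figure D5:**
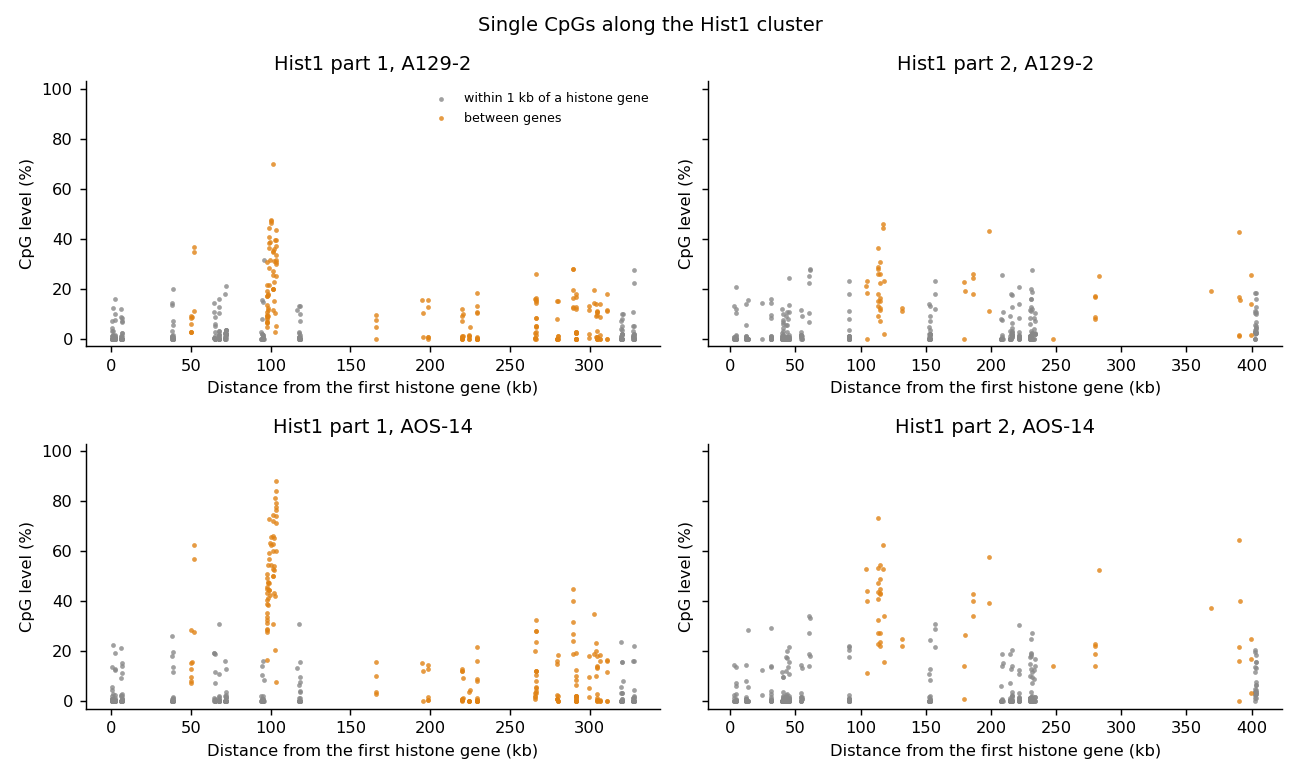
Methylation level in percent (y axis) of single compared CpGs along the parts of the Hist1 cluster, by distance in kb from the first histone gene of the part (x axis), with A129-2 above and AOS-14 below. Grey points lie within 1 kb of a histone gene and orange points between genes; the tallest orange group, in part 1, includes the windows with 27.1% in A129-2 and 63.9% in AOS-14.

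Between the genes the share of single CpGs lower in A129-2 was above that of the genome, and the share of windows was near it. Of the 240 CpGs, 69 (28.8%) were lower in A129-2 by Fisher's exact test at adjusted p under 0.05, where 12.9% of all CpGs were. By at least 25 points 34 (14.2%) were lower, where 4.08% of all CpGs were. Of these 34, 29 lay in part 1 in no RefSeq gene, mostly within chr13:21813206-21818752. The 240 CpGs had median depths of 97.5 and 141.5 reads, against 79 and 97 at all compared CpGs. In AOS-14 they also stood higher, at 24.1% against 15.0%, and the part of depth and level was not tested. In fixed windows of 1 kb with at least 5 CpGs, 55.3% of all windows were lower and 0.978% higher on summed reads. Within each CpG 55.5% of all windows were lower and 0.79% higher. Of the 20 windows between Hist1 genes 10 were lower and 0 higher by either test. With 25 points required, 5.04% of all windows and 3 of the 20 were lower. Of the 56 windows near histone genes 8 were lower and 1 higher by each test, and none reached 25 points. The higher window was not the same by the 2 tests, so none was higher by both.

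Within the parts the largest differences lay in part 1, in the windows with compared CpGs at chr13:21818616-21818752 and chr13:21817054-21818000. The first, with 11 CpGs, had 27.1% in A129-2 and 63.9% in AOS-14 on 372 and 1380 reads, at an adjusted p of 8.49e-42 by Fisher's exact test. The second had 28.3% and 56.6% over 13 CpGs on 1306 and 2591 reads, at an adjusted p of 9.03e-61 by Fisher's exact test. Both lie in no RefSeq gene, and the nearest is Hist1h4m (H4c17), 6.47 kb and 4.90 kb away. A further window of this stretch, chr13:21813206-21813967, came within 1.06 kb of Hist1h4m and had 12.8% and 38.9%. No between-gene window of the parts was higher in A129-2 at adjusted p under 0.05.

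The interval between the parts of Hist1 (chr13:22043659-23531043), which holds no histone gene, was kept apart from these counts. Its 379 compared CpGs averaged 13.7% in A129-2 and 23.8% in AOS-14, near the levels between the genes of the parts. Of its 24 windows 13 were lower on summed reads, 14 within each CpG, and 0 higher by either test. With 25 points required 2 were lower, and both differed by more than any between-gene window of the parts. The window at chr13:22549318-22549786 had 18.6% and 65.2% over 16 CpGs on 4480 and 4621 reads, 6.42 kb from the vomeronasal receptor gene Vmn1r204. That at chr13:22905191-22905321 had 14.2% and 54.8% over 6 CpGs, on only 86 and 193 reads.

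Other genes inside the Hist1 span were not uniformly high. Of 77 annotated tRNA genes in and between the parts, 15 had at least 5 compared CpGs, with median levels of 3.74% and 4.59%, near those of the histone genes. Some of these 15 share their CpGs with each other or with another neighbouring gene, so they are not separate observations. The zinc finger gene Zfp184 had 3.78% and 4.10%, the protease gene Prss16 7.86% and 10.6%, and the phosphate transporter gene Slc17a2 15.0% and 26.1%. None of the 75 annotated Vmn1r genes, which encode vomeronasal receptors, had enough CpGs.

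Variant histone genes outside the clusters resembled the members in level. Of 18 listed genes 13 were measured, with medians of 2.95% and 3.83%. By both tests 9 of the 13 were lower and 0 higher, a share near the 73.6% of all genes. The highest were H1fnt (H1f7), a linker histone of sperm development, at 22.6% and 22.9% on 5 CpGs, and H2afb3 (H2ab3), an H2A variant of the testis, at 6.52% and 20.5% on 7 CpGs. Among regulators of the clustered genes, 21 of 22 were found and 20 measured, with medians of 4.14% and 5.15%. Of these 20, 15 were lower by both tests and 0 higher, again near the share of all genes. The highest were Casp8ap2, a factor of histone pre-mRNA processing, at 17.2% and 27.7% on 7 CpGs, and Gon4l, at 9.70% and 16.4% on 22 CpGs.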

How the data were processed

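Members, gene lists, motifs and tests were chosen with earlier results of these data known. Per the labels' protocols, about 100 Mb of mouse sequence was captured with a methylation panel and read as 50 bp pairs after bisulfite treatment, while the labels' titles name RRBS; which applies is not settled here. Per the submitters' processing notes, BSMAP and mm10 were used. Its version, trimming and duplicate removal were not given in the sources used here.

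For each CpG the authors deposited, per the file headers, the methylation level as a fraction and the read counts behind it (all and methylated reads, strands added). The fraction matched the counts within 0.0005. There were 0 columns of other samples. Levels in percent were recomputed from the deposited counts at CpGs that both libraries covered with 10 or more reads. The median depth at compared CpGs was 79 and 97 reads.

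A gene's level is the mean over its CpGs. A read that covers several CpGs counts at each, so p-values are too small and intervals too narrow, and both cover counting error only. Fisher's exact test on summed reads, two-sided with Benjamini-Hochberg adjustment over all genes, CpGs or windows, was the test set in the design, and a call takes the direction of the reads it compares. On simulated reads it called unchanged genes where depth varied between CpGs, so the Cochran-Mantel-Haenszel test was added after seeing the data. Intervals are exact (Clopper-Pearson) at 95%.

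Gene positions, names and promoter sequences came from RefSeq (GRCm38.p6). No genome was used, and 8 members had no promoter entry or strand. Named are, per class, the 2 highest and 2 lowest members by mean of the lines, the 3 largest differences in each direction at adjusted p under 0.05, the testis genes Hist1h1t, Hist1h2aa and Hist1h2ba, all Hist3 and Hist4 members, the 2 highest genes of each list, and the 2 between-gene windows with the largest difference in each direction. Alternatives covered read minimum, weighting, strand, CCGG, deep CpGs, flank, CpG minimum, size of difference and shared CpGs. Computation used matplotlib 3.10.9, numba 0.67.0, scipy 1.17.1, numpy 2.4.6 and pandas 2.3.3 under Python 3.11.15.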

Additional observations from a re-analysis of the deposited data

How the results depend on the processing

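The low level of the histone genes relative to the DNA between them held under every alternative that gave both values. With a minimum of 5 reads the member level in AOS-14 was 3.81%, and between the genes it was 14.2% in A129-2 and 25.2% in AOS-14. At 20 reads these were 2.84% and 3.49% for members and 12.6% and 23.2% between genes, with 3 members higher. Weighting by reads gave 2.36% and 3.22%, and 10.9% and 25.8%. With + strand reads only, levels were 1.91% and 2.32%, and 11.1% and 21.0%, with 1 member higher and 3 CpGs lower. With - strand reads only, the member level in A129-2 was 2.90%, between-gene DNA had 12.2% and 22.5%, 7 members were lower and 2 higher, and 1 CpG was lower. Without CCGG, levels were 0.762% and 0.781%, and 8.46% and 19.1%, 5 members were lower and 3 higher, 1 CpG was lower, and the differences of Hist1h1b and Hist2h4 reversed to 0.42 and 1.07 points. With no flank, 9 members were lower and 1 higher, 3 CpGs were lower, the level in A129-2 was 2.90%, and Hist1h2aa reversed to 0.79 points. The same reversal to 0.79 points came with each CpG given to the nearest histone gene, where 12 members were lower. With a 2 kb flank 2 members were higher, and comparing reads within each CpG also gave 2 higher. Windows between genes numbered 17 lower with at least 3 CpGs and 4 with at least 10. At a size of 10 points, 8 windows between genes were lower and 1 histone CpG was called. Over 2 kb from a histone gene the level in AOS-14 was 22.8%. The counts in this paragraph stand without the shares of all genes, CpGs or windows under each setting. Those shares can move too: on summed reads 62.2% of all genes were lower without CCGG, against 76.6% with it. A changed count is therefore not a result about the histone genes alone. No member was called at the minimum size in any alternative run, with 25 points or with 10. Of 96 recomputed differences of 7 named members, 78 kept direction and side of the threshold, 14 kept direction only and 4 reversed. Among the 14 were Hist1h1b with + strand reads (-0.49 points), Hist1h4a with - strand reads (-1.14 points) and Hist1h2aa with a 0.5 kb flank (-0.97 points). Smaller flanks hold fewer CpGs and reads, but the causes of these changes were not tested. No paired analysis was possible because each line has 1 library. Most member promoters held too few compared CpGs to describe, and 11 of 13 H4 genes were not measured.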
